A study of Mus musculus with 24 samples.

Results

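The HoxB genes measured here were the 10 protein-coding genes of the mouse HoxB cluster, Hoxb1, Hoxb2, Hoxb3, Hoxb4, Hoxb5, Hoxb6, Hoxb7, Hoxb8, Hoxb9 and Hoxb13. They were chosen by name, out of 19409 gene symbols in the table, with the transcript of highest summed level taken where a symbol had more than 1. The values come from cRNA-seq, total RNA sequencing calibrated with a spike-in of Drosophila SG4 cells, in 2 mouse embryonic stem cell (ESC) lines taken untreated and after 72 h with 800 nM 4-hydroxytamoxifen (OHT). Each of the 4 conditions had 3 replicate libraries, 12 in all. The shallowest library had 14668159 reads on genes and the deepest 27016156. PRC1CKO cells (clone B9), which are Ring1a-/- and Ring1bfl/fl and express Cre from Rosa26::ERT2-Cre, lack RING1A in every condition, and OHT removes RING1B as well, so that no PRC1 is left. PRC1CPM cells (clone 41) carry Ring1aI50A/D53K together with Ring1b(WT->I53A/D56K)fl/fl and the same Rosa26::ERT2-Cre. Their RING1A is catalytically dead in every condition, and OHT switches RING1B from its wild-type form to a catalytically dead one. Both lines are of strain E14 and were grown in serum with leukemia inhibitory factor, each line is 1 clone, and untreated cells of the same line served as the control. The study's methods speak of biological replicates, but the labels only number them and name no separate cultures, so p-values measure the spread between these libraries, which may in part be technical.

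Hox genes encode homeodomain transcription factors that give cells along the head-to-tail axis their position. Within a cluster they lie in the order in which they are used, from genes of the hindbrain at one end to genes of the tail at the other, and ESCs keep them largely silent under Polycomb repression. PRC1 monoubiquitylates histone H2A through RING1A or RING1B, works together with the methyltransferase PRC2, and can also compact chromatin without its catalytic activity. The comparison of the lines therefore asks what becomes of the HoxB genes when all of PRC1 is lost. It also asks what becomes of them when its catalytic activity is lost but its complexes still form.

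The cluster occupies 173.893 kb of chromosome 11, chr11:96194361-96368253 on GRCm38, and all 10 genes lie on the plus strand. Hoxb13, used in the tail and later in the prostate, stands first and alone, 74.73 kb from the next gene. Hoxb9 and Hoxb8 (starts at 96271330 and 96281905) follow, then Hoxb7 (96286646), Hoxb6 (96299171), Hoxb5 (96303512), Hoxb4 (96318267), Hoxb3 (96323126), Hoxb2 (96351632) and Hoxb1 (96365758), a gene that specifies the fourth hindbrain segment. Hoxb3 has 4 exons and a gene body of 24805 bp, and each of the others has 2 exons, in bodies from 2239 bp (Hoxb13) to 5264 bp (Hoxb9). The RefSeq antisense gene Hoxb5os covers the whole bodies of Hoxb6 and Hoxb5, and Hoxb3os covers 4897 bp of Hoxb3 and 1763 bp of Hoxb2. The library kit marked strand, but whether the counting used it is not given in the sources used here, so reads of these 4 genes and of their antisense partners cannot be told apart. A longer RefSeq isoform of Hoxb3 also runs over Hoxb4, so Hoxb4 reads are uncertain in the same way.

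Promoter sequences in RefSeq (GRCm38.p6, from 250 bases before to 50 after the start) were at hand for 3 of the 10 genes, Hoxb8, Hoxb4 and Hoxb1. CpG dinucleotides are shown because Polycomb complexes are recruited to CpG-rich promoters. The promoters of Hoxb4, which rose in both lines, and Hoxb8, which rose in PRC1CKO cells, are printed 5′ to 3′ on the plus strand with each CG in capitals, Hoxb8 from chr11:96281655-96281954 and Hoxb4 from chr11:96318017-96318316.
Hoxb8: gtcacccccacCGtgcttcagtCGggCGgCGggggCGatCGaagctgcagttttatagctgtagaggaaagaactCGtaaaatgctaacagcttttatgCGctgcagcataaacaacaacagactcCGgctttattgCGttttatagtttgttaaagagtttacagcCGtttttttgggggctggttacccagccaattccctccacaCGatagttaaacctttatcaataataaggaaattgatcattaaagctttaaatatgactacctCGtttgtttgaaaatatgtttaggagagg
Hoxb4: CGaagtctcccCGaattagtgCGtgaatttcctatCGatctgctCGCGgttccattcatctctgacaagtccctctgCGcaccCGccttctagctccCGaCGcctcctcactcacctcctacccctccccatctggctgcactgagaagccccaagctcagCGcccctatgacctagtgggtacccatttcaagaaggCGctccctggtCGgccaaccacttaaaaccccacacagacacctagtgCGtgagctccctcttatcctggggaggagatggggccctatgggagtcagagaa
The Hoxb8 window held 13 CG at a G and C content of 42.3%, so that its CG count was 0.970 of the number its base composition would give. The Hoxb4 window held 14 CG at 58% G and C, or 0.593 of that number. The Hoxb1 window, chr11:96365508-96365807, held 10 CG at 59.3%, or 0.380. All 3 lay above the median of 7 CG among 32851 promoters of this length, of which 94.6% held at least 1 CG, and 37.9%, 36.3% and 43.5% of those promoters held as many as Hoxb8, Hoxb4 and Hoxb1 or more. Hoxb8 alone of the 3 held the letters TATAAA, searched on both strands, as did 13.6% of all promoters. CG reads the same on both strands and does not overlap TATAAA. These are matches of letters, and no binding was measured.

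In untreated cells the cluster was close to silent apart from Hoxb9 and, in PRC1CKO cells, Hoxb13. A normalised read count is the number of reads on a gene divided by the spike-in size factor of the library. Outside Hoxb9 and Hoxb13, no HoxB gene had more than 10 reads in an untreated PRC1CKO library or more than 8 in an untreated PRC1CPM library, 4 genes had an untreated PRC1CKO library at 0 reads (Hoxb7, Hoxb6, Hoxb5, Hoxb1), and 5 had an untreated PRC1CPM library at 0 (Hoxb6, Hoxb5, Hoxb3, Hoxb2, Hoxb1). These values rest on few molecules, because 73.4% to 77.4% of read counts below 100 were even in each library, as when both mates of a pair are counted. With a fragment taken as 2 reads, a count of 0 allows up to 3 fragments, or 6 reads, which is 4.62 to 8.94 normalised reads depending on the library, and such floors and intervals cover counting error only.

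Hoxb9, which acts with its paralogs on the thoracic skeleton, was the exception. It had normalised read counts of 136, 95.4 and 115 in the untreated and 138, 139.8 and 97.7 in the OHT-treated PRC1CKO libraries, and 110.0, 108 and 55.6 before and 137, 98.2 and 81.1 after OHT in PRC1CPM. The treated and untreated libraries overlapped in both lines. Hoxb9 supplied 59.9% to 81.9% of the summed HoxB level in untreated PRC1CKO libraries and 63.1% to 82.7% in untreated PRC1CPM libraries, against 24.8% to 28.3% and 33.1% to 34.6% after OHT, while its own treated and untreated levels overlapped.

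Summed over the other 9 genes, the normalised read count was 90.9, 52.3 and 25.4 in the untreated PRC1CKO libraries and 420.3, 355 and 283 in the OHT-treated ones. In PRC1CPM it was 40.9, 22.6 and 32.5 before and 262, 199 and 153 after OHT. The treated libraries lay above all untreated ones in each line. The sum after OHT was 352 ± 68.9 (SD, n = 3) in PRC1CKO and 205 ± 54.4 in PRC1CPM cells, and the ranges of the lines did not overlap there, with 283 as the lowest PRC1CKO and 262 as the highest PRC1CPM library.

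Levels were compared between genes per kb of gene body, as shown in the plot of level by position. In untreated PRC1CKO cells Hoxb9 ranked first, at 21.9 ± 3.81 normalised reads per kb, followed by Hoxb13 at 10.0 ± 6.57. These 2 did not overlap each other, and Hoxb13 did not overlap the next gene, Hoxb8. Hoxb13 did overlap Hoxb2, whose highest library was at 5.00, against 4.53 in the lowest Hoxb13 library. The remaining genes lay between 0.231 (Hoxb3) and 2.42 (Hoxb8), and each overlapped its neighbour in the order. In untreated PRC1CPM cells Hoxb9 (17.3 per kb) stood apart from Hoxb13 (3.01), and each gene from Hoxb13 down to Hoxb5 (0) overlapped the next. After OHT, in PRC1CKO cells Hoxb9 (23.8), Hoxb13 (21.7), Hoxb4 (21.2) and Hoxb7 (18.8) each overlapped the next, Hoxb2 followed at 10.3 without overlapping Hoxb7, and Hoxb1 was last at 2.94. In PRC1CPM cells Hoxb13 (22.1) and Hoxb9 (20.0) led, followed by Hoxb4 (11.8), Hoxb7 (11.7) and Hoxb2 (6.76), with Hoxb8 (2.45), Hoxb3 (1.66), Hoxb6 (1.32), Hoxb1 (1.29) and Hoxb5 (0.888) behind. Of the 9 pairs of neighbours in each order, 7 overlapped in untreated PRC1CKO, 8 in treated PRC1CKO, 8 in untreated PRC1CPM and 7 in treated PRC1CPM cells. Hoxb3 is low on this scale because its introns count as length. Per kb of exon it had rank 5 in treated cells of both lines, and Hoxb7 rank 1 in treated PRC1CKO cells.

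**Figure D1:**
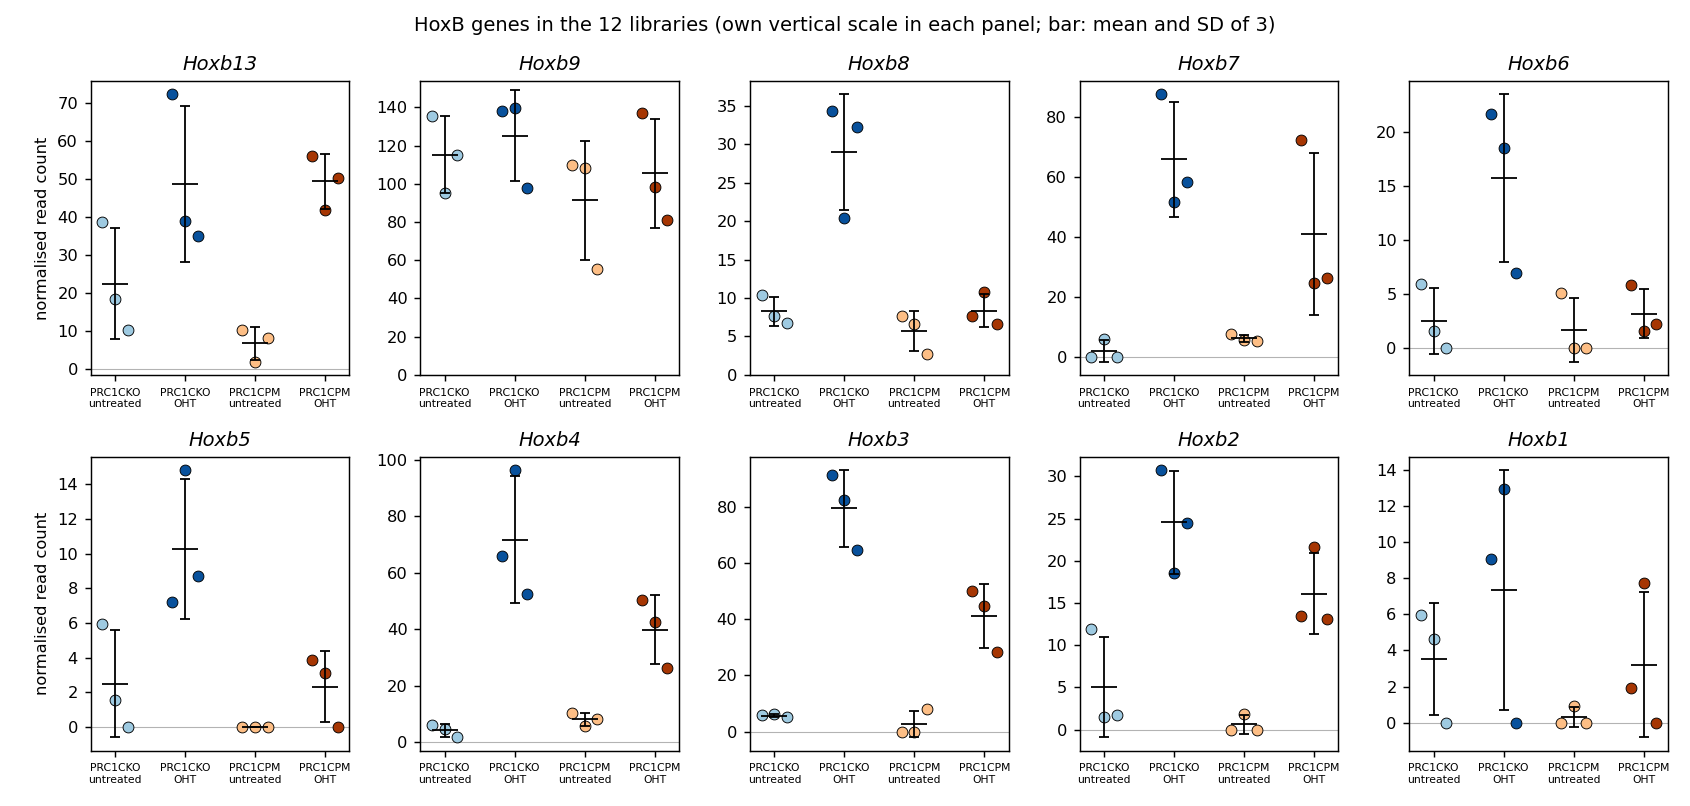
Normalised read count (vertical axis, own scale in each panel) of the 10 HoxB genes in the order of their position, for the 4 conditions on the horizontal axis. Points are libraries (replicates 1 to 3 from left to right) and bars are the mean and SD of 3. Hoxb9 stays between 55.6 and 139.8 throughout, while Hoxb4 and Hoxb3 rise from at most 10.2 to at least 26.3 in both lines.

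**Figure D2:**
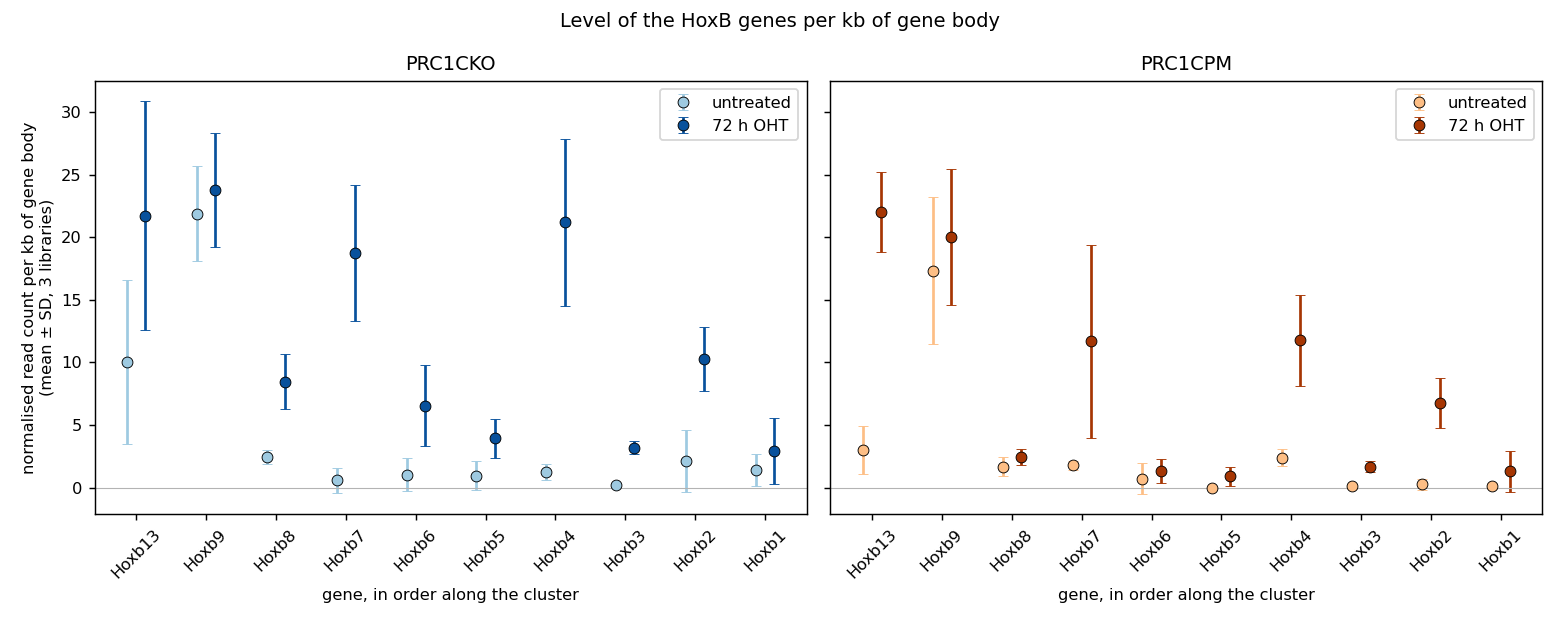
Normalised read count per kb of gene body (vertical axis, mean and SD of 3 libraries) of the 10 HoxB genes in the order of their position, for PRC1CKO (left) and PRC1CPM (right), untreated and after 72 h of OHT. Untreated cells show Hoxb9 above the rest, and after OHT Hoxb13, Hoxb7 and Hoxb4 approach it in PRC1CKO cells.

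Loss of PRC1 in PRC1CKO cells raised 5 HoxB genes, Hoxb8, Hoxb7, Hoxb4, Hoxb3 and Hoxb2, which lie side by side in the cluster apart from Hoxb6 and Hoxb5 between them, and lowered none. For this, limma was run on log2(normalised read count + 1) of the 12 libraries together, and a gene was called at a Benjamini-Hochberg adjusted p under 0.05 over 16940 transcripts and a fold change above 1.5. 8 of the 10 genes had the 10 reads in at least 3 libraries needed for the test, and 5 of these 8 were called higher, where 16.5% of all transcripts tested were. Since a gene can pass this minimum through the condition in which it is high, the count describes the 8 tested genes and not all 10. The median log2 change of the 8 was 2.08, against 0.12 for all transcripts tested.

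Of the genes at the hindbrain end, Hoxb4, a factor known for expanding blood stem cells, had 5.96, 4.62 and 1.69 normalised reads in the untreated and 66.0, 96.3 and 52.3 in the OHT-treated PRC1CKO libraries. Its log2 change was 3.90 (standard error 0.51, adjusted p = 2.4e-08, limma). Hoxb3, which helps to pattern the hindbrain and neck, went from 5.96, 6.16 and 5.07 to 91.3, 82.4 and 64.6, a log2 change of 3.57 (standard error 0.60, adjusted p = 5.2e-06). For both genes every treated library was above every untreated one. Hoxb2, which acts on the facial motor neurons, had 11.9, 1.54 and 1.69 before and 30.7, 18.5 and 24.4 after OHT, again without overlap, and a log2 change of 2.49 (standard error 0.69, adjusted p = 0.00529). This call rests on 2 to 8 untreated reads a library and was lost with a pseudocount of 0.1 (adjusted p = 0.0795). Hoxb1 had 5.96, 4.62 and 0 before and 9.04, 12.96 and 0 after OHT. Its replicate 3 was at 0 in both conditions, the libraries overlapped, and the log2 change of 0.61 (standard error 0.97, adjusted p = 0.769) was smaller than its error.

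Among the trunk genes, Hoxb7, whose promoter is widely used to mark the kidney duct, had 0, 6.16 and 0 normalised reads in the untreated PRC1CKO libraries and 87.7, 51.8 and 58.4 after OHT. Its log2 change of 5.08 (standard error 0.61, adjusted p = 2.4e-09, limma) exceeded those of the other 7 genes tested, although its size depends on the pseudocount because 8 reads in 1 library are all the untreated reads there are. Hoxb8, known for holding myeloid progenitors in growth, rose from 10.4, 7.70 and 6.76 to 34.3, 20.4 and 32.3 without overlap. Its log2 change of 1.68 (standard error 0.58, adjusted p = 0.0307) lost its call without OHT-treated replicate 1 (adjusted p = 0.150) or 3 (0.122) and without untreated replicate 2 (0.0814) or 3 (0.108). The same call was lost without the gDNA-seq correction of the spike-in (0.0859) and with a pseudocount of 0.1 (0.0726).

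Hoxb6, a gene of the lateral trunk mesoderm, and Hoxb5, which acts in the neurons of the gut, did not reach the read minimum. Hoxb6 had 4, 2 and 0 reads before and 24, 20 and 8 after OHT in PRC1CKO cells, and Hoxb5 had 4, 2 and 0 before and 8, 16 and 10 after. The treated libraries were above the untreated ones for both. In the fit without the minimum their log2 changes were 2.55 (adjusted p = 0.0144, limma) and 2.05 (adjusted p = 0.0334). Over all 10 genes, 7 had every treated PRC1CKO library above every untreated one, and 5 of the 8 tested did, where 22.1% of all transcripts tested did.

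At the tail end, Hoxb13 had 38.7, 18.5 and 10.1 normalised reads in untreated and 72.3, 38.9 and 34.9 in treated PRC1CKO libraries. The highest untreated library reached into the treated range, and the log2 change of 1.20 (standard error 0.52, adjusted p = 0.101, limma) was not called. It was called without untreated replicate 1, at 1.68 (adjusted p = 0.0168), and with only the PRC1CKO libraries in the fit (adjusted p = 0.0353), but was 0.76 (adjusted p = 0.497) without untreated replicate 3 and 0.88 (adjusted p = 0.423) without treated replicate 1. For Hoxb9 the log2 change was 0.11 (standard error 0.34, adjusted p = 0.890), and its sign turned with TMM scaling and without the gDNA-seq correction. The median of all transcripts moved from 0.12 with the deposited scale to -0.0019 with TMM. Relative to the median of all transcripts, the 5 called genes changed by between 1.56 (Hoxb8) and 4.97 (Hoxb7) on the log2 scale.

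**Figure D3:**
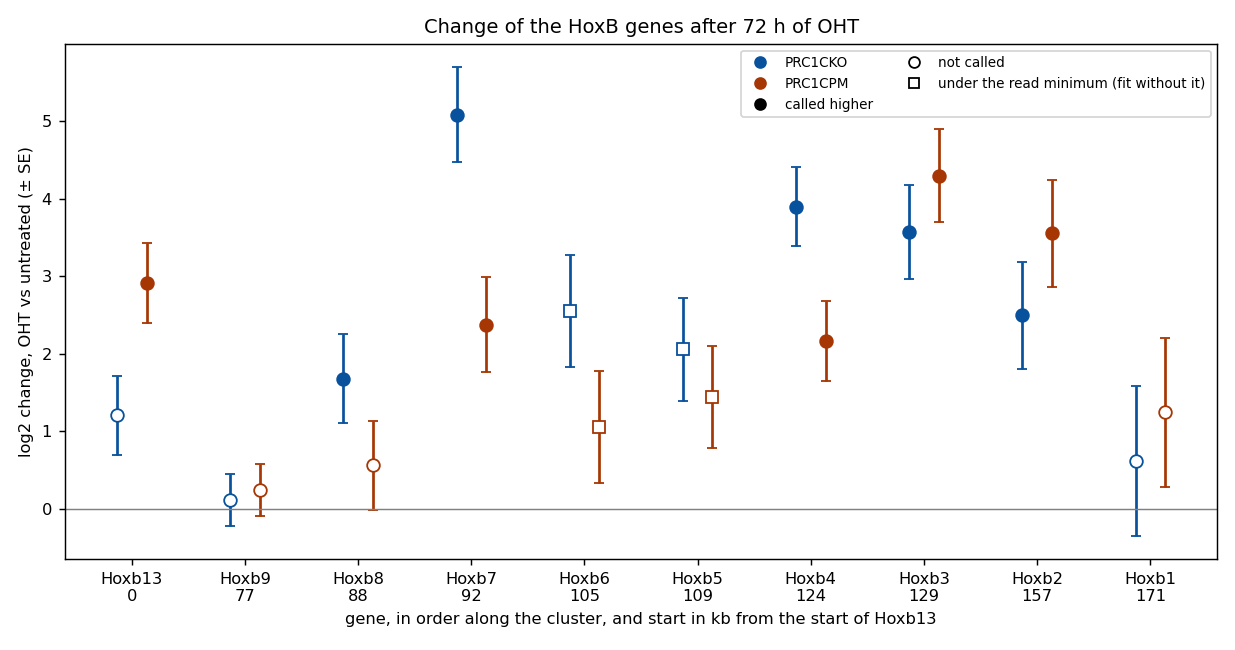
Log2 change from untreated to 72 h of OHT (vertical axis, with SE from limma) of each HoxB gene in its order along the cluster, with its start in kb from that of Hoxb13, in PRC1CKO (blue) and PRC1CPM (brown) cells. Filled circles were called higher, open circles were not, and squares mark Hoxb6 and Hoxb5, which were fitted without the read minimum. Hoxb9 lies at 0.11 and 0.24, between higher values on each side.

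In treated PRC1CPM cells PRC1 complexes still form but lack catalytic activity. The study reports that RING1B and PRC2 binding also falls there at strongly occupied target sites. Of the 8 tested genes, 5 were again called higher after OHT and none lower, where 13.1% of all transcripts were called higher. They were Hoxb13, Hoxb7, Hoxb4, Hoxb3 and Hoxb2. The median log2 change of the 8 was 2.27, against 0.0996 for all transcripts. Hoxb7, Hoxb4, Hoxb3 and Hoxb2 were thus called in both lines, Hoxb8 in PRC1CKO alone and Hoxb13 in PRC1CPM alone. Every treated library was above every untreated one for 5 of the 8 tested genes and 5 of all 10, the same 5 that were called, where 18.7% of transcripts tested showed this.

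Hoxb3 had 0, 0 and 8.13 normalised reads in untreated and 50.2, 44.8 and 28.5 in treated PRC1CPM libraries, a log2 change of 4.30 (standard error 0.60, adjusted p = 2.6e-07, limma). Its size rests on 6 reads in 1 untreated library, and it was 5.36 without that library, 3.76 without either of the other untreated ones and 6.53 with a pseudocount of 0.1, called each time. Hoxb4 rose from 10.2, 5.65 and 8.13 to 50.2, 42.5 and 26.3, with a log2 change of 2.16 (standard error 0.51, adjusted p = 0.00154). Both genes were again separated, with the lowest treated library far above the highest untreated one. Hoxb2 had 0, 1.88 and 0 before and 13.5, 21.6 and 13.1 after OHT, a log2 change of 3.55 (adjusted p = 1.0e-04). It rests on 2 untreated reads against 54 treated ones. Taken as 1 and 27 fragments, these gave a ratio of 21.5 after scaling, with an exact 95% interval of 3.54 to 880.0. Hoxb1 had 1 untreated read and 12 treated ones, taken as 1 and 6 fragments, a ratio of 4.78 with an interval of 0.579 to 219.7. Its treated libraries overlapped the untreated ones, with 1.93, 7.73 and 0 against 0, 0.942 and 0, and its log2 change of 1.24 (adjusted p = 0.545, limma) was not called, nor was it without treated replicate 2 (0.46) or 3 (2.02).

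Hoxb7 had 7.67, 5.65 and 5.42 normalised reads in untreated and 72.4, 24.7 and 26.3 in treated PRC1CPM libraries. Treated replicate 1 was far above the other two. The log2 change of 2.37 (standard error 0.61, adjusted p = 0.00372, limma) fell to 1.88 (adjusted p = 0.0768) without it, and the call was also lost with a pseudocount of 0.1 (adjusted p = 0.103). Hoxb8 had 7.67, 6.60 and 2.71 before and 7.72, 10.8 and 6.57 after OHT, with overlap and a log2 change of 0.56 (standard error 0.58, adjusted p = 0.696), which was 0.18 without untreated replicate 3. Hoxb6 had 4, 0 and 0 reads before and 6, 2 and 2 after. Hoxb5 had none in 3 untreated libraries and 4, 4 and 0 after OHT, with overlap. With 3 fragments over the untreated group as the floor, its ratio was 1.06. This floor leaves out counting error in the treated reads, so it shows no rise. Neither gene was called in the fit without the read minimum (adjusted p = 0.486 and 0.204).

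Hoxb13 had 10.2, 1.88 and 8.13 normalised reads in untreated and 56.0, 41.8 and 50.4 in treated PRC1CPM libraries. The log2 change of 2.91 (standard error 0.52, adjusted p = 2.5e-05, limma) brought it to 49.4 ± 7.17 (SD, n = 3), beside 48.7 ± 20.6 in treated PRC1CKO cells. Hoxb9 changed by 0.24 (standard error 0.34, adjusted p = 0.809). The 5 called genes changed by between 2.06 (Hoxb4) and 4.20 (Hoxb3) relative to the median of all transcripts.

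After OHT, 7 of the 8 tested genes were lower in PRC1CPM than in PRC1CKO cells, Hoxb13 being the exception, but none of the differences was called. Of all transcripts tested, 35.1% lay below 0 here, and 1.47% were called in either direction. Of the 8 genes, 1 had an unadjusted p under 0.05 with limma, 2 with edgeR and 3 with DESeq2, and neither edgeR nor DESeq2 called any. With limma, 1862 of all 16940 transcripts tested had such a p. The median difference was -0.81, against 0.097 for all transcripts. The comparison uses the same treated libraries as the changes within each line.

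Hoxb8 was the gene with an unadjusted p under 0.05 in limma, with 34.3, 20.4 and 32.3 normalised reads in treated PRC1CKO against 7.72, 10.8 and 6.57 in treated PRC1CPM libraries. Its log2 difference was -1.67 (standard error 0.58, adjusted p = 0.156, limma). It was called lower with TMM (adjusted p = 0.0256) and with only the treated libraries in the fit (0.0236), and in none of the 6 fits that left out 1 library. Hoxb4 (-0.84, adjusted p = 0.614) and Hoxb3 (-0.96, adjusted p = 0.637) also had all PRC1CPM libraries below all PRC1CKO libraries. With Hoxb6 and Hoxb5, each at -2.00 in the fit without the read minimum (adjusted p = 0.254 and 0.193), this held for 5 of the 10 genes and for 3 of the 8 tested, where 4.35% of all transcripts tested showed it. Hoxb7 (-0.81), Hoxb2 (-0.59), Hoxb1 (-0.82) and Hoxb9 (-0.26) overlapped between the lines. With 1 library left out, Hoxb1 lay between -2.01 and -0.038, Hoxb9 between -0.47 and -0.091 and Hoxb7 between -1.30 and -0.55. None was called in these fits. Hoxb13 differed by 0.08, and its sign turned with TMM scaling.

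Before treatment none of the 8 genes was called between the lines either, where 2.69% of all transcripts were called in either direction. The median difference was -0.998, and 4 genes had an unadjusted p under 0.05 with limma, against 2 with edgeR and 2 with DESeq2, which called none. With limma, 2391 of all 16940 transcripts tested had such a p. Hoxb13 was lower in PRC1CPM cells (6.75 ± 4.34 against 22.4 ± 14.7, SD, n = 3, log2 difference -1.62, adjusted p = 0.0731, limma). Hoxb7 was higher (6.25 ± 1.24 against 2.05 ± 3.55, log2 difference 1.90, adjusted p = 0.0785). Neither passed the threshold, but the calls of this comparison depended on the setting. Hoxb13 was called lower with TMM (adjusted p = 0.0278, limma) and without the gDNA-seq correction (0.0258), and Hoxb7 was called higher (0.0273) and Hoxb3 lower (0.0410) with a pseudocount of 0.1. Leaving out 1 library gave 1 called gene in 5 of 6 fits, Hoxb7 without replicate 2 of either line, Hoxb13 without PRC1CKO replicate 3 or PRC1CPM replicate 1, and Hoxb3 without PRC1CPM replicate 3. Over these 6 fits the difference of Hoxb13 lay between -2.06 and -1.02, with adjusted p from 0.0183 to 0.316 (limma). That of Hoxb7 lay between 1.42 and 2.84, with adjusted p from 0.00196 to 0.429 (limma). No gene, by the transcript taken for it, had all untreated PRC1CPM libraries below all untreated PRC1CKO libraries, as 2.55% of all transcripts tested did. The other measured cluster transcripts did, namely the shorter Hoxb3 transcript NM_010458 (-2.09, adjusted p = 0.0660, limma), Gm11538 (-1.58, adjusted p = 0.103) and Gm53 (-0.60, adjusted p = 0.220). None of these differences was called.

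Whether OHT acted differently in the lines was tested as the interaction of line and treatment, which 0.0236% of all transcripts passed at an adjusted p under 0.05. No HoxB gene did with limma, edgeR or DESeq2, and 3 had an unadjusted p under 0.05 with each. With limma these were Hoxb7, Hoxb4 (-1.74, unadjusted p = 0.0204) and Hoxb13, and 497 of all 16940 transcripts tested had such a p. The strongest was Hoxb7, whose log2 change was smaller by 2.71 in PRC1CPM (-2.71, standard error 0.86, adjusted p = 0.729, limma). It passed without untreated PRC1CKO replicate 2, the only untreated library of that line with Hoxb7 reads (-3.66, adjusted p = 0.0368). For Hoxb13 the interaction was 1.71 and for Hoxb8 -1.12, both at an adjusted p of 1.00, so the calls of Hoxb13 and Hoxb8 in a single line each were not shown to be particular to that line.

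Line comparisons of the HoxB genes are made against a chromosome that was itself shifted. The 1369 tested chromosome 11 transcripts outside the cluster had a median log2 difference of 0.45 between untreated PRC1CPM and PRC1CKO cells and of 0.42 after OHT, and 95.0% and 94.6% of them lay above 0. That was the highest median of 20 chromosomes in both comparisons, 0.33 above the median of all transcripts, with chromosome 6 next at 0.31 and 0.30. The excess of chromosome 11 over the others was 0.328 to 0.402 in the untreated and 0.330 to 0.377 in the treated PRC1CPM libraries and -0.0236 to 0.00964 in the PRC1CKO libraries, so it was present in each PRC1CPM library. Copy number was not tested. The interaction of line and OHT had a median of -0.036 on chromosome 11 and of -0.018 over all transcripts.

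The HoxB genes lay below that shift, other than Hoxb7 and Hoxb4 in untreated cells. After OHT, Hoxb8, Hoxb7, Hoxb6, Hoxb5, Hoxb4, Hoxb3 and Hoxb1 each had a lower difference than all 1369 chromosome 11 transcripts (Hoxb6 and Hoxb5 in the fit without the read minimum). With each library recentred on the median of these transcripts, the difference of Hoxb8 after OHT was -2.10 (standard error 0.46, adjusted p = 0.00284, limma) and that of Hoxb4 -1.27 (standard error 0.41, adjusted p = 0.0227), and both were called lower. In untreated cells the recentred differences of Hoxb13 (-2.08, adjusted p = 0.00258), Hoxb9 (-0.84, adjusted p = 0.0212), Hoxb3 (-2.14, adjusted p = 0.0205) and Hoxb2 (-2.10, adjusted p = 0.0182) were called lower. Recentring also moves the median of all transcripts, to -0.33 after OHT and -0.34 in untreated cells, so that 2179 and 2248 transcripts were then called lower.

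**Figure D4:**
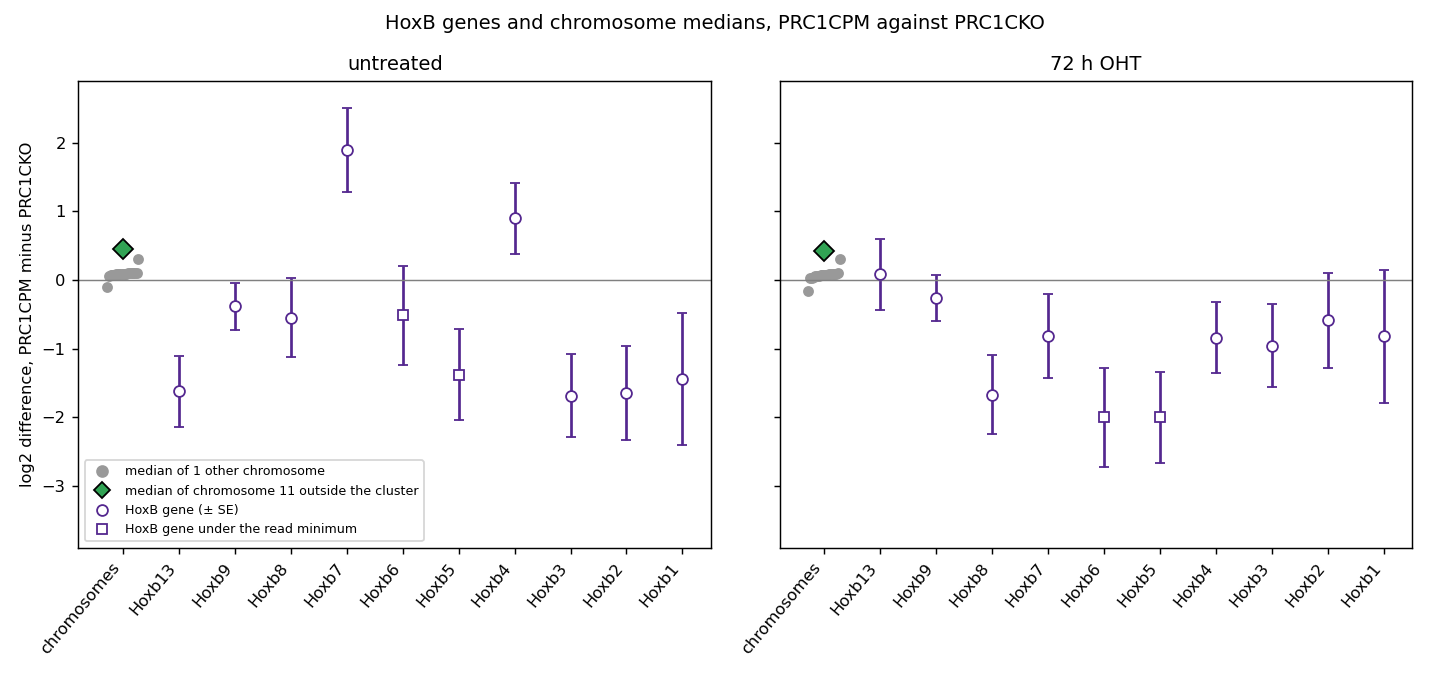
Log2 difference between PRC1CPM and PRC1CKO cells (vertical axis) in untreated cells (left) and after 72 h of OHT (right). The first position shows the median of each of 20 chromosomes, with chromosome 11 outside the cluster as a diamond at 0.45 and 0.42, and the others show the HoxB genes with their SE (squares for Hoxb6 and Hoxb5, fitted without the read minimum). After OHT all HoxB genes lie below the diamond.

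The noncoding RNAs of the cluster that were in the table, Gm53 and Gm11538, were not called in either line. Gm53, which lies between Hoxb13 and Hoxb9 (96251660 to 96264484), had 611.7 ± 62.2 normalised reads in untreated and 682.8 ± 77.9 in treated PRC1CKO cells (SD, n = 3), and 407 ± 83.6 and 546 ± 144 in PRC1CPM cells. Its log2 changes of 0.16 (adjusted p = 0.767, limma) and 0.41 (adjusted p = 0.359) were not called, as for Hoxb9 next to it. Gm11538 (96203454 to 96205480) went from 17.0 to 31.2 and from 5.45 to 14.7, with log2 changes of 0.81 (adjusted p = 0.358) and 1.32 (adjusted p = 0.0986). Its treated libraries lay above the untreated ones in both lines. The shorter Hoxb3 transcript NM_010458, whose body lies within that of the longer one and shares its reads, had 4, 2 and 4 reads before and 46, 45 and 26 after OHT in PRC1CKO cells (log2 change 3.04, adjusted p = 2.8e-04). In PRC1CPM cells it had 0 reads before and 22, 20 and 12 after, at least 7.16-fold higher with 3 fragments (6 reads) over the untreated group as the floor. As for Hoxb5, this floor leaves out counting error in the treated reads.

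Of the 5 nearest genes on each side of the cluster, 9 passed the read minimum. In PRC1CKO cells 2 of these 9 were called higher, a share near the 16.5% of all transcripts, Calcoco2 on the Hoxb13 side (145 to 276, log2 change 0.92, adjusted p = 0.0236, limma) and Skap1 on the Hoxb1 side (203 to 401, log2 change 0.95, adjusted p = 0.00831). None was called in PRC1CPM cells. Between the treated lines Ttll6, on the Hoxb13 side, was higher in PRC1CPM cells (455 against 196, log2 difference 1.18, adjusted p = 0.0165). In untreated cells the 9 flanking genes all had differences above 0 between the lines, from 0.33 (Ttll6) to 0.73 (Calcoco2), the direction of chromosome 11, and none was called.

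The HoxB genes were set beside the 29 Hox genes of the other clusters, all of which passed the read minimum. In each line 26 of these 29 were called higher and none lower. Of all transcripts tested, 16.5% were called higher in PRC1CKO and 13.1% in PRC1CPM cells. The median log2 changes of the 29 were 3.28 in PRC1CKO and 2.78 in PRC1CPM cells, against 2.08 and 2.27 for the 8 HoxB genes. With the genes at 0 in every untreated library (2 in PRC1CKO, 3 in PRC1CPM) set at their bound, the medians were 3.28 and 2.78. By cluster, 8 of 11 HoxA genes (median 2.91), all 9 HoxC genes (3.14) and all 9 HoxD genes (4.73) were called in PRC1CKO cells, and 11 HoxA (2.82), 6 HoxC (2.00) and 9 HoxD genes (2.92) in PRC1CPM cells. Differences between clusters were not tested. After OHT all 29 had lower values in PRC1CPM than in PRC1CKO cells, with a median of -1.07, and 3 were called lower. In that comparison 35.1% of all transcripts tested lay below 0, and 1.47% were called in either direction.

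Hoxb9 stood lowest of its 4 paralogs in both lines. Hoxa9 went from 7.07 to 95.6 normalised reads in PRC1CKO and from 4.09 to 49.2 in PRC1CPM cells, with log2 changes of 3.92 and 3.42, Hoxc9 changed by 3.55 and 2.25, and Hoxd9 by 3.41 and 3.14. All 6 changes were called, while Hoxb9 changed by 0.11 and 0.24. The untreated levels also differed, since Hoxb9 began at 115 and 91.3, and Hoxa9, Hoxc9 and Hoxd9 between 4.09 and 13.1. A similar order held in the eighth group, where Hoxb8 (1.68 and 0.56) lay below Hoxc8 (3.14 and 3.13) and Hoxd8 (3.38 and 2.01). Hoxb2 and Hoxb3 had another order. Hoxb2 (2.49 and 3.55) lay above Hoxa2 (1.11 and 2.60) in both lines, although Hoxa2 was at 0 in every untreated PRC1CPM library, so that its second value depends on the pseudocount, and Hoxb3 (3.57 and 4.30) lay between Hoxa3 and Hoxd3 in PRC1CKO cells and above both (3.09 and 2.92) in PRC1CPM cells. In the fourth group Hoxb4 (3.90 and 2.16) lay below Hoxd4 (5.27 and 2.89) in both lines, above Hoxa4 and Hoxc4 in PRC1CKO and below both in PRC1CPM cells. Hoxb7 (5.08) lay above Hoxa7 (4.16) in PRC1CKO cells and, at 2.37, below it (3.95) in PRC1CPM cells. These orders are descriptions, and differences between paralogs were not tested. Hoxb13 (1.20 and 2.91) lay between Hoxc13 (1.17 and 1.47), whose untreated levels were 90.7 and 53.2, and Hoxd13 (4.73 and 3.27).

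**Figure D5:**
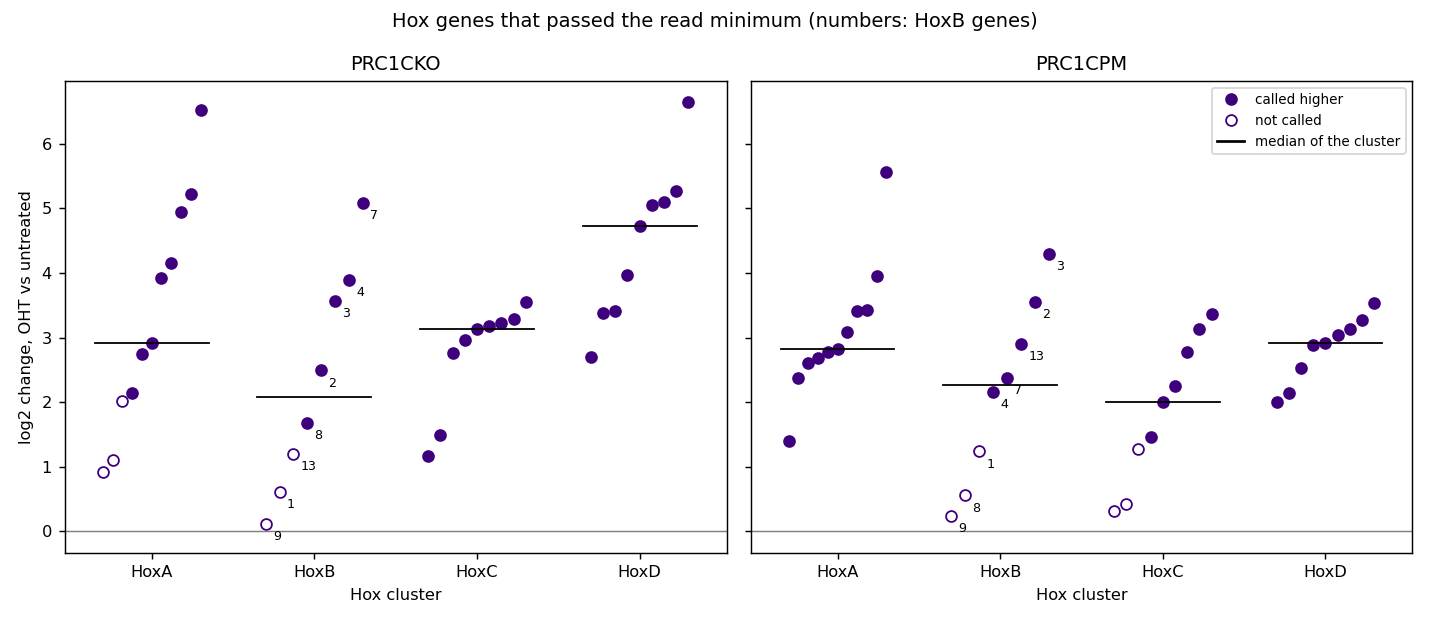
Log2 change from untreated to 72 h of OHT (vertical axis) of each Hox gene that passed the read minimum, by cluster, in PRC1CKO (left) and PRC1CPM (right) cells. Filled points were called higher, open points were not, lines are cluster medians, and numbers name the HoxB genes. The HoxB medians are 2.08 and 2.27, and Hoxb9 is the lowest point of both panels.

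HOX proteins bind DNA together with TALE homeodomain partners of the MEIS, PBX and PKNOX families. Of 9 such genes, 4 were called higher in PRC1CKO cells, Meis1 (108 to 1548 normalised reads, log2 change 3.93), Meis2 (152 to 1103, 2.98), Meis3 (73.3 to 142, 1.09) and Pknox2 (289 to 601, 1.08). In PRC1CPM cells 3 were called, Meis1 (131 to 937, 2.84), Meis2 (62.6 to 153, 1.27) and Pknox2 (251 to 532, 1.05). The shares of all transcripts tested called higher were 16.5% in PRC1CKO and 13.1% in PRC1CPM cells. Meis2 was lower in treated PRC1CPM than in treated PRC1CKO cells by 2.84 (-2.84, adjusted p = 6.7e-09, limma). It was also lower in untreated PRC1CPM cells (62.6 against 152, log2 difference -1.13, adjusted p = 0.0309), and the interaction of line and OHT was not called for it (-1.71, adjusted p = 0.289). The 4 PBX genes were present at between 352 and 3220 normalised reads on average in treated and untreated cells, and none was called.

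Of 11 genes known to act on Hoxb transcription, through CDX factors, retinoic acid, hindbrain factors such as EGR2, or the Trithorax methyltransferase KMT2A, 10 passed the read minimum. In PRC1CKO cells 5 were called higher, among them Aldh1a2, which makes retinoic acid (59.4 to 322, log2 change 2.42), Cdx1 (209 to 664, 1.85), Cyp26a1, which degrades retinoic acid (1.26), and the receptor Rarb (1.01), and the receptor Rara was called lower (1430 to 799, -0.84). In PRC1CPM cells 5 were called higher, among them Cdx1 (76.1 to 633, 3.12), Aldh1a2 (77.8 to 322, 2.00), Cdx2 (14.05 to 38.9, 1.71) and Rarb (1.31). The medians of the 10 were 1.05 and 1.07, and 16.5% and 13.1% of all transcripts tested were called higher in PRC1CKO and PRC1CPM cells. Kmt2a was at 5550 to 6284 on average in the 4 conditions and was not called in either line.

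By the pattern over the 12 libraries, the transcripts most like the mean of the 8 tested HoxB genes were Ust, Col4a2, Plxdc2, Grip1 and Col8a2, with Pearson correlations of 0.971, 0.971, 0.969, 0.968 and 0.968 on the log2 scale. All 12 libraries share 4 condition means, so these values describe the step at OHT. Among the HoxB genes themselves, correlation with this mean ranged from 0.566 (Hoxb9) and 0.660 (Hoxb1) to 0.881 (Hoxb4) and 0.918 (Hoxb2). The mean includes the gene itself, which raises each of these values.

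Markers of cell types were followed beside the HoxB genes, since in bulk RNA a few cells with high expression and many with low expression cannot be told apart. The ESC factors remained abundant. The 7 listed genes that were in the table summed to 58400 ± 7693 (SD, n = 3) normalised reads in untreated and 47706 ± 3662 in treated PRC1CKO cells, and to 46227 ± 4731 and 46261 ± 9881 in PRC1CPM cells, with Tfcp2l1 or Esrrb as the most abundant. Of these 7, Sox2 was called lower in PRC1CKO cells (7151 to 3825, log2 change -0.89), and none was called in PRC1CPM cells.

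Markers of endoderm moved with the HoxB genes. The 5 genes summed to 803, 516 and 402 in untreated and 2553, 2003 and 2013 in treated PRC1CKO libraries, and to 335, 315 and 325 before and 1153, 690.4 and 1069 after OHT in PRC1CPM. Of the 5, 4 were called higher in each line, among them Gata6 (156 to 1102 and 65.8 to 328). This and the counts below stand beside 16.5% and 13.1% of all transcripts tested called higher in PRC1CKO and PRC1CPM cells. The 5 mesoderm markers summed to 222 ± 116 (SD, n = 3) before and 459 ± 105 after OHT in PRC1CKO and to 234 ± 83.9 and 470 ± 172 in PRC1CPM cells, with Eomes or T as the most abundant and 2 of the 4 tested called higher in each line. For 3 trophectoderm markers the sums were 79.9 ± 57.5, 330.4 ± 81.3, 62.6 ± 50.7 and 195 ± 81.8 in the same order, with Gata3 the most abundant after OHT and 1 of 2 tested called in PRC1CKO and 2 in PRC1CPM cells. The 5 neural markers summed to 1447 ± 574, 2230 ± 177, 1637 ± 145 and 2034 ± 583, with Nes as the most abundant and 3 called higher and 1 lower in PRC1CKO and 1 higher in PRC1CPM cells. No marker was at 0 in all libraries of a condition. The part of such cells in the HoxB levels was not tested.

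Replicate 1 held the highest HoxB sum of all 4 conditions, at 226, 559, 151 and 399 normalised reads over the 10 genes in untreated and treated PRC1CKO and untreated and treated PRC1CPM cells. For transcripts outside chromosome 11, the mean log2 value in untreated PRC1CKO libraries was subtracted from the value in each library. The median of these differences was also highest in replicate 1 of each condition. In untreated PRC1CKO cells this median was 0.357 against -0.195 and -0.157. By HoxB reads, replicate 1 was lowest in untreated PRC1CKO cells (152 against 192 and 166). It lay between the others in untreated PRC1CPM cells (118 against 139 and 65) and was highest in the treated conditions. The part of this library-wide shift in the HoxB sums was not tested. Replicate 1 also held the highest sum of the 5 fibroblast markers in each condition, with Col1a1 as the most abundant. That sum was 5665 against 2031 and 2668 in untreated PRC1CKO, 3929 against 3124 and 3495 in treated PRC1CKO, 14461 against 3690.4 and 4622 in untreated PRC1CPM, and 14740 against 4505 and 6192 in treated PRC1CPM cells. Its part in the HoxB levels was not tested. Without any 1 library, 4 to 6 HoxB genes were called in PRC1CKO and 4 to 5 in PRC1CPM cells, beside 5 in each with all libraries.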

How the data were processed

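The 12 cRNA-seq libraries were analysed, grouped by line, treatment and replicate number in the labels. Their 12 gDNA libraries hold no values per gene and entered only through the spike-in correction. The authors discarded rDNA reads, aligned the rest to concatenated mm10 and dm6 with STAR and Bowtie 2, kept unique alignments, removed duplicates and counted reads over gene bodies of a non-redundant refGene set. Strand use in the counting is not given in the sources used here. What the authors deposited per gene is a signal (normalised read count), that is, reads over a DESeq2 size factor that rests on Drosophila reads and the gDNA-seq ratio. Their table also holds log2 fold changes and adjusted p-values of their own comparisons and a list of partially derepressed genes, none of which was used.

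Values were whole multiples of one step per library (100%, within 0.02 of a read), which gave the reads, 14668159 to 27016156 per library. The main test was limma 3.58.1 (R 4.3.3) on log2 of these values plus a pseudocount of 1, with 4 condition means, a trended prior variance and p-values adjusted by Benjamini-Hochberg over the 16940 transcripts that had 10 reads or more in 3 libraries or more. A call required more than 1.5-fold change besides adjusted p under 0.05, except for the interaction, which required the latter only. For genes with few reads, fold changes on this scale lay below or above those of edgeR. Hoxb2 in PRC1CPM cells was 3.55 here and 4.21 with edgeR, and Hoxb7 in PRC1CKO cells was 5.08 and 4.69. The fits were tested on simulated data.

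All 10 HoxB genes were named whatever their values, with the transcripts in the cluster, the 5 nearest genes on each side, the other Hox genes, HOX cofactors, regulators of Hoxb genes, cell type markers and the 5 transcripts most like the HoxB mean. Values of some listed genes are not reported here. Members and lists were chosen with earlier results of these data known. Alternatives were edgeR 4.0.16 and DESeq2 1.42.0 on the reads, TMM, size factors without the gDNA-seq correction (from the library totals of the study), no read minimum, 0.1 as pseudocount, a replicate block, stricter calls (2-fold, adjusted p 0.01, limma treat), only the libraries compared, 1 transcript per symbol, chromosome 11 recentring, and each library left out. Gene starts in the table count from 0 and are printed counting from 1 (GRCm38). Python 3.11.15 with numpy 2.4.6, pandas 2.3.3 and matplotlib 3.10.9 made summaries and plots.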

Additional observations from a re-analysis of the deposited data

How the results depend on the processing

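With a pseudocount of 0.1 in place of 1, 3 HoxB genes were called in PRC1CKO cells (Hoxb7, Hoxb4, Hoxb3) in place of 5. Between the treated lines, where none was called, Hoxb8 was called lower (1 gene) with TMM, with the replicate block and with only the libraries compared, and Hoxb8 and Hoxb4 (2 genes) with chromosome 11 recentring. Between the untreated lines, also at 0, Hoxb13 was called lower (1 gene) with TMM and without the gDNA-seq correction, Hoxb7 higher and Hoxb3 lower (2 genes) with a pseudocount of 0.1, Hoxb13, Hoxb7 and Hoxb3 (3 genes) with the replicate block, and 4 genes with chromosome 11 recentring. Leaving out 1 library gave 4 to 6 genes in PRC1CKO, 4 to 5 in PRC1CPM and 0 between the treated lines. It gave 0 to 1 between the untreated lines, with Hoxb7 called without replicate 2 of either line, Hoxb13 without PRC1CKO replicate 3 or PRC1CPM replicate 1, and Hoxb3 without PRC1CPM replicate 3. For the interaction it gave 0 to 1, with Hoxb7 called without untreated PRC1CKO replicate 2. The cause of these changes was not tested.

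Same-numbered libraries of different conditions deviated from their group means together, with a mean correlation of 0.205 over 18 pairs (lowest 0.0988, 17 above 0.1). Over 36 pairs with different numbers the mean was -0.102. That value largely follows from centring each condition on its own mean and is no separate comparison. Each of the 12 libraries correlated best with its own number. The pairing is a hint from the data and not from the design. With the replicate number as a block, Hoxb13 was also called in PRC1CKO cells (adjusted p = 0.0114, limma), and the interaction called 1 HoxB gene, Hoxb7 (-2.71, adjusted p = 0.0173). Over the whole table the block called 3435 transcripts higher and 823 lower in PRC1CKO and 3033 and 461 in PRC1CPM cells (without it 2787 and 524, and 2226 and 237), and 1131 higher and 232 lower between the treated lines, 1631 and 253 between the untreated lines, and 78 and 246 for the interaction, against 212 and 37, 374 and 81, and 0 and 4.

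Signs turned only for values that were not called. Hoxb9 in PRC1CKO cells was -0.0043 with TMM, -0.039 without the gDNA-seq correction and -0.014 without untreated replicate 2, and in PRC1CPM cells -0.084 without untreated replicate 3. Hoxb1 in PRC1CKO cells was -0.099 without treated replicate 2 and -0.27 without untreated replicate 3. Hoxb13 between the treated lines was -0.015 with TMM, -0.34 with chromosome 11 recentring, and -0.036, -0.11 and -0.0091 without PRC1CKO replicate 2 or 3 or PRC1CPM replicate 1. The interaction of Hoxb9 was -0.045, -0.082 and -0.20 without treated PRC1CKO replicate 3, treated PRC1CPM replicate 1 or untreated PRC1CPM replicate 3, and that of Hoxb1 -0.56 and -0.16 without treated PRC1CKO replicate 3 or treated PRC1CPM replicate 2. Of the other log2 values under the alternatives, 613 kept direction and side of the threshold, 26 came to pass it and 9 no longer did. With exon in place of gene-body length, 26 of 40 ranks of the levels moved. The highest values with 1 library left out were 0.28 and 0.41 for Hoxb9 in PRC1CKO and PRC1CPM cells, 1.80 for Hoxb1 in PRC1CKO cells, 0.40 for Hoxb13 between the treated lines, and 0.29 for the interaction of Hoxb9.

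Whole-table counts of higher and lower transcripts moved by over 1.5 times, or their split by over 10 points, with TMM (2845 and 1133 in PRC1CKO, 2396 and 595 in PRC1CPM, 524 and 261 between the treated and 745 and 305 between the untreated lines, 0 and 14 for the interaction) and without the gDNA-seq correction (2132 and 666, 3428 and 68, 441 and 21, 130 and 148, 2 and 1), against 2787 and 524 and 2226 and 237 in the lines. Without the read minimum they were 136 and 21 between the treated and 243 and 62 between the untreated lines, with none for the interaction. The DESeq2 counts were 344 and 85 between the treated lines and 0 and 15 for the interaction, and edgeR gave 268 and 59 between the treated lines. Depth limits the untreated levels of the HoxB genes outside Hoxb9 and Hoxb13, which had at most 10 reads in a PRC1CKO and 8 in a PRC1CPM library.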
